A study of Homo sapiens with 6 samples.

Results

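The genes described here are 8 regulators and products of intestinal epithelial identity, CDX1, CDX2, HNF4A, KLF4, KLF5, ATOH1, GATA6 and VIL1, chosen by gene name out of the 58735 genes of the deposited count table. Their mRNAs were read in LoVo, a long-established line of human colorectal cancer cells. The cells were transfected either with a negative control siRNA (si-NC, 3 libraries) or with siRNA against SRSF11 (si-SRSF11, 3 libraries), with no other agent named for either group. The paper lists several siRNAs against SRSF11 and does not say which was used for sequencing. SRSF11 is a serine/arginine-rich splicing factor. The study asked about its role in colorectal cancer and metastasis, and sequencing of RNA after its knockdown was 1 of several experiments. Poly-A RNA was sequenced from both ends in reads of 150 bp, and 14369525 to 15514404 reads were counted on genes in the si-NC libraries and 15688702 to 16685719 in the si-SRSF11 libraries. The 3 libraries of a group came from separate RNA samples of 1 cell line, so p-values measure the spread between these samples, which may be partly technical.

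Intestinal epithelium takes its identity from a small set of transcription factors. The caudal homeobox proteins CDX1 and CDX2 and the nuclear receptor HNF4A switch on genes of absorptive enterocytes, GATA6 is a zinc finger factor of endoderm that acts early in gut development and in the crypt, and ATOH1 is the basic helix-loop-helix factor that directs progenitors to secretory fates. KLF5 is the Krüppel-like factor of dividing crypt cells, whereas KLF4 is known for differentiated cells, goblet cells among them. VIL1 encodes villin, an actin-bundling and actin-severing protein of the microvilli of the brush border, and is no transcription factor. In total RNA of a culture, more cells that express a gene and more RNA per cell cannot be told apart.

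The promoter windows of the members that passed the test between the groups are shown first, as reference sequence. RefSeq windows (build GRCh38.p14, 250 bases before to 50 bases after a start site, written in the direction of transcription) were matched by symbol for 6 of the 8 genes, and CDX1 and VIL1 were not among them. HNF4A and KLF5 each had windows at 2 start sites. Capitals mark copies of a motif on either strand. The motif searched for the caudal factors was TTTATNG, that for HNF4 was CAAAGTCC, that for GATA factors was AGATAA and that for Krüppel-like factors was CACCC. For basic helix-loop-helix factors the E-box CAGCTG was searched, as well as the E-box written CAGATG. No motif is contained in another. The windows are at chr13:27969266-27969565 on the minus strand for CDX2, at chr20:44355449-44355748 and chr20:44400989-44401288 on the plus strand for the upstream and downstream starts of HNF4A, and at chr9:107489720-107490019 on the minus strand for KLF4.
CDX2: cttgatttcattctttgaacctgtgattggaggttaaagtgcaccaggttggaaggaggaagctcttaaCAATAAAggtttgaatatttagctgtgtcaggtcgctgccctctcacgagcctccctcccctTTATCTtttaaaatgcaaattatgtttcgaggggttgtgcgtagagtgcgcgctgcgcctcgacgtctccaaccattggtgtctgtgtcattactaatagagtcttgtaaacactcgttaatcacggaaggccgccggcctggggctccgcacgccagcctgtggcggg
HNF4A upstream start: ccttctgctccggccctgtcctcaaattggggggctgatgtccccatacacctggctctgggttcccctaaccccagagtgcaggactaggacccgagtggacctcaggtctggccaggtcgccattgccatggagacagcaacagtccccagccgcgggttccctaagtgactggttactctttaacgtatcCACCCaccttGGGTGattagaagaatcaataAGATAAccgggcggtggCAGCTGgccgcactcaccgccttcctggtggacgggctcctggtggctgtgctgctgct
HNF4A downstream start: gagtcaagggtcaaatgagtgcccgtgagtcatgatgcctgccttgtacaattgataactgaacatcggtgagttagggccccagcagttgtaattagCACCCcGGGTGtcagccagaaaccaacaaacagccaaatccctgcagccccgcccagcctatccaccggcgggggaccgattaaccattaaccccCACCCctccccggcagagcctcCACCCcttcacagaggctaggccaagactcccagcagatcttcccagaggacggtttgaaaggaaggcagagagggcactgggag
KLF4: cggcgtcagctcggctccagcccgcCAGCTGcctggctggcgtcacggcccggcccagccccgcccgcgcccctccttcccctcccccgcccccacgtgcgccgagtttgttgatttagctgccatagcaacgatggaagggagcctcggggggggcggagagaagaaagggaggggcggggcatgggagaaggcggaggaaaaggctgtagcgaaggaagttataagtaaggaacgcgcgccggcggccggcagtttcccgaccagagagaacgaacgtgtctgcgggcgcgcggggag

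The CDX2 window held 1 copy of the CDX motif and 1 copy of the GATA motif. The CDX motif occurred in 9.73% and the GATA motif in 10.3% of all 35114 windows of the same length. The upstream HNF4A window held 1 GATA motif, 2 CACCC motifs and 1 CAGCTG E-box, and the downstream window held 4 CACCC motifs, a motif found in 59.9% of all windows. The KLF4 window held 1 CAGCTG E-box, present in 17.9% of all windows. Of the windows not printed, the upstream KLF5 window held 1 CDX motif and 1 CACCC motif, and the downstream one held 2 CACCC motifs. The GATA6 window held 2 CACCC motifs and 1 CAGCTG E-box, and the ATOH1 window held 2 CACCC motifs. The HNF4 motif (1.20% of all windows) and the CAGATG E-box (14.7%) matched in no window of these genes. These matches describe the letters of the reference, and the letters alone do not show binding in LoVo cells. Reads were counted per gene, so the share of HNF4A transcripts from each of its starts was not analysed here.

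The knockdown was read first, with levels in CPM (counts-per-million, scaled by TMM). SRSF11 averaged 86.5 ± 1.90 CPM over the si-NC libraries and 49.5 ± 0.952 CPM over the si-SRSF11 libraries (SD, n = 3 each), or 57.2% of the control level. The cells carried an epithelial RNA profile. All 9 epithelial markers on the list passed the filter of at least 10 counts in at least 3 libraries, and their summed level was 5970 to 6310 CPM in si-NC and 6000 to 6410 CPM in si-SRSF11, although KRT20 and CEACAM5, markers of differentiated colonic epithelium, were near the lower limit with means of 0.701 and 1.07 CPM in si-NC. The median log2 fold change of the 9 was 0.04.

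Of the 8 genes, 7 had enough reads to be tested. The 2 caudal factors and HNF4A were higher in si-SRSF11, KLF4 was lower, and KLF5, GATA6 and VIL1 did not pass. In all, 3 rose and 1 fell, so that 4 of 7 (57.1%) were called by edgeR's quasi-likelihood test at a Benjamini-Hochberg adjusted p under 0.05, where 24.6% of the 15801 tested genes were called, 13.2% higher and 11.4% lower. The changes were small. The largest was a log2 fold change of 0.40, and no member passed the limit of 1 in absolute log2 fold change that, with the same adjusted p, 1.09% of tested genes passed. The groups did not overlap for 6 of the 7 tested members, against 38.8% of tested genes. Over all genes 2081 were higher and 1805 lower, which turned to 1585 higher and 2289 lower when library size alone set the scale, and each member kept its sign under that scaling.

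**Figure D1:**
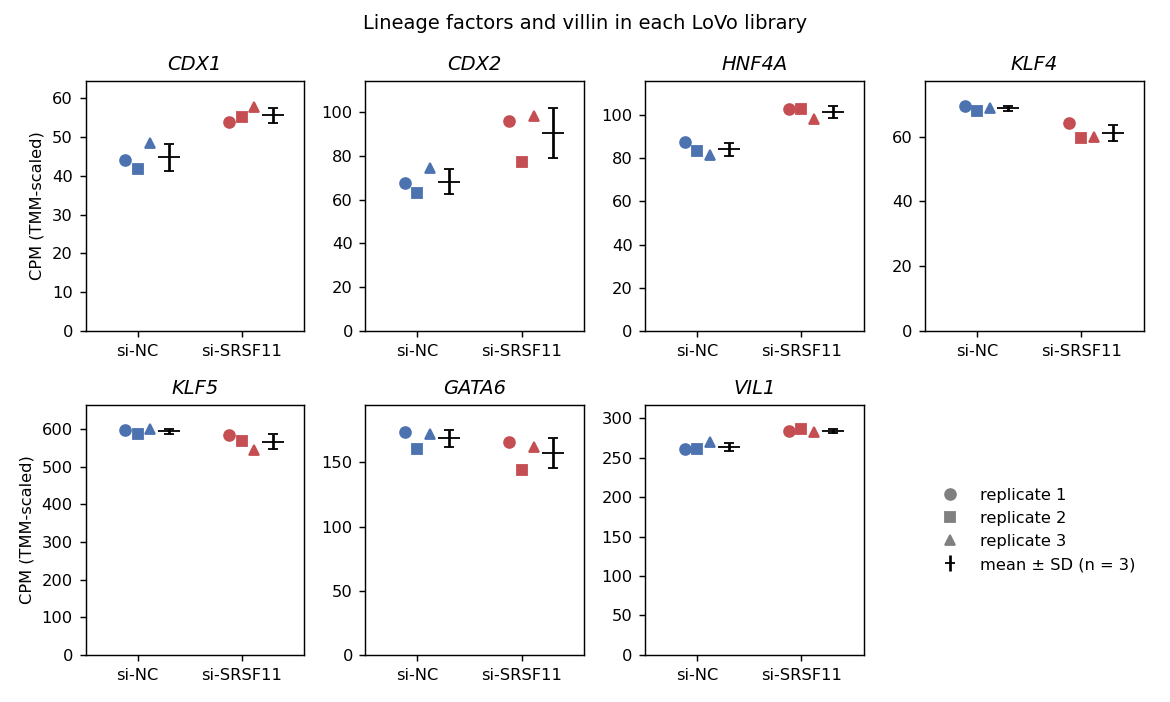
Level in CPM (scaled by TMM, y axis from 0) of the 7 tested genes in each LoVo library, with si-NC libraries in blue, si-SRSF11 libraries in red, a marker shape for each replicate number and the mean ± SD beside them. The si-SRSF11 libraries lie above the si-NC libraries for CDX1, CDX2, HNF4A and VIL1 and below them for KLF4 and KLF5, while the groups overlap for GATA6.

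CDX2 (ENSG00000165556, chromosome 13 of GRCh38, 27962137 to 27971139, minus strand) showed the largest change of the 8 genes. It was counted 977, 955 and 1156 times in si-NC replicates 1, 2 and 3, and 1496, 1254 and 1597 times in si-SRSF11 replicates 1, 2 and 3. Scaled for library size, these are 67.4, 62.8 and 74.2 CPM in si-NC and 95.7, 77.2 and 97.9 CPM in si-SRSF11. Replicates 1 and 3 of si-SRSF11 were close to each other, and replicate 2 lay nearer to the highest si-NC library, at 77.2 against 74.2 CPM, without overlap. The mean rose from 68.1 ± 5.73 to 90.2 ± 11.4 CPM (SD, n = 3 each), a log2 fold change of 0.40 (standard error 0.075, 95% interval 0.25 to 0.56, adjusted p = 0.00038, edgeR). CDX2 also had the largest spread between libraries, with a coefficient of variation of 8.40% over the si-NC libraries and 12.6% over the others. Without si-SRSF11 replicate 2 the log2 fold change was 0.51, and over the other libraries left out in turn it ranged down to 0.34, with the call kept each time.

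CDX1 (ENSG00000113722, chromosome 5, 150166795 to 150184558, plus strand), the caudal paralog known from the crypt, moved the same way. It had 639, 634 and 756 counts in si-NC, or 44.1, 41.7 and 48.5 CPM, and 843, 894 and 941 counts in si-SRSF11, or 53.9, 55.0 and 57.7 CPM. Each si-SRSF11 library lay above each si-NC library. The mean rose by 24.0%, and the fitted log2 fold change was 0.31 (standard error 0.065, 95% interval 0.18 to 0.45, adjusted p = 0.0012 from the same test). Neither CDX1 nor CDX2 shares an exon base with another annotated gene. The third caudal gene, CDX4, had no read in any library.

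HNF4A (ENSG00000101076, chromosome 20, 44355700 to 44434596, plus strand) had nearly the same number of reads in each si-NC library, with 1270, 1265 and 1271 counts, and 1608, 1670 and 1597 counts in si-SRSF11. The levels were 87.6, 83.2 and 81.6 CPM in si-NC and 102.8, 102.8 and 97.9 CPM in si-SRSF11, with a clear gap between the groups. The log2 fold change was 0.27 (standard error 0.051, 95% interval 0.16 to 0.37, adjusted p = 0.00054 from the same test), a rise of 20.3%. The antisense gene HNF4A-AS1 lies within the span of HNF4A and had only 1 to 6 counts per library, and HNF4A shares no exon base with it. HNF4G, the paralog that acts beside HNF4A in enterocytes, rose too, from 18.6 ± 0.978 to 23.0 ± 0.831 CPM (SD, n = 3 each), with a log2 fold change of 0.31 (adjusted p = 0.012 from the same test). Its call was lost without si-NC replicate 2. Of 9 relatives of the CDX, HNF4, GATA and ATOH genes 4 were tested, and HNF4G alone was called. That share of 25% lies near the 24.6% over all tested genes.

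KLF4 (ENSG00000136826, chromosome 9, 107484852 to 107490482, minus strand) was the only one of the 8 genes called lower. It had 1007, 1031 and 1074 counts in si-NC and 1002, 970 and 975 counts in si-SRSF11, while the si-SRSF11 libraries were deeper. The levels were therefore 69.4, 67.8 and 69.0 CPM in si-NC and 64.1, 59.7 and 59.8 CPM in si-SRSF11, so that the highest si-SRSF11 library stayed below the lowest si-NC library. The log2 fold change was -0.17 (standard error 0.055, 95% interval -0.28 to -0.05, adjusted p = 0.029 from the same test), so that 89.0% of the control level remained. This call was close to the threshold. DESeq2 gave an adjusted p of 0.051, and the call was lost in 5 of the 6 fits that left out 1 library, all but the one without si-SRSF11 replicate 1, with log2 fold changes between -0.21 and -0.15.

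KLF5 (ENSG00000102554, chromosome 13, 73054976 to 73077542, plus strand) had by far the most reads of the 8 genes, with 8672, 8918 and 9341 counts in si-NC and 9157, 9257 and 8899 counts in si-SRSF11. Its levels were 598.0, 586.8 and 599.6 CPM in si-NC and 585.5, 569.6 and 545.7 CPM in si-SRSF11. The groups were separate by a narrow margin, and the difference did not pass, with a log2 fold change of -0.07 (95% interval -0.16 to 0.02, adjusted p = 0.27 from the same test). Its standard error, 0.044, was the smallest of the 7 tested genes, and the interval does not reach a change of the size seen for CDX1, CDX2 or HNF4A.

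GATA6 (ENSG00000141448, chromosome 18, 22169443 to 22202528, plus strand) did not pass the test, at 2514, 2442 and 2679 counts over the si-NC libraries and 2594, 2342 and 2644 counts over the si-SRSF11 libraries. The levels were 173.4, 160.7 and 172.0 CPM in si-NC and 165.9, 144.1 and 162.1 CPM in si-SRSF11, and the groups overlapped. The log2 fold change was -0.10 (95% interval -0.21 to 0.01, adjusted p = 0.19 from the same test). Replicate 2 of si-SRSF11 was the lowest library, and without it the log2 fold change was -0.04. The antisense gene GATA6-AS1, which overlaps the start of GATA6, ranged from 126 to 153 counts in si-NC and from 161 to 168 in si-SRSF11, with a log2 fold change of 0.11 (adjusted p = 0.55 from the same test). In all, 14.2% of the exon bases of GATA6 are shared with antisense genes, and no source used here says whether counting took strand into account. Among the other GATA genes, GATA2 was tested and stood at 18.3 CPM in si-NC and 19.0 CPM in si-SRSF11, and GATA1, GATA3, GATA4 and GATA5 stayed under the filter.

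VIL1 (ENSG00000127831, chromosome 2, 218419092 to 218453295, plus strand) was counted 3780, 3960 and 4204 times in si-NC and 4428, 4660 and 4598 times in si-SRSF11. The levels were 260.7, 260.6 and 269.9 CPM in si-NC and 283.1, 286.7 and 282.0 CPM in si-SRSF11. All si-SRSF11 libraries lay above all si-NC libraries and close together, and the log2 fold change was 0.11 (standard error 0.045, 95% interval 0.01 to 0.20). The unadjusted p was 0.027 and the adjusted p 0.089 from the same test, so that villin did not pass over all tested genes. Of its annotated exon bases, 44.0% are shared with USP37 on the opposite strand. USP37 had 225 to 267 counts per library and a log2 fold change of -0.02 (adjusted p = 0.90 from the same test), so few reads were assigned to that gene.

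ATOH1 (ENSG00000172238, chromosome 4, 93828753 to 93830964, plus strand) had 0 counts in every library, in both groups, and could not be tested. In a single library a count of 0 allows an expected count of up to 3 (95% limit), which is 0.184 to 0.207 CPM in these libraries. An ATOH1 mRNA below that level could have been missed in a single library. Its relatives were scarce too, with ATOH7 at 0.932 CPM and ATOH8 at 1.28 CPM in si-NC.

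**Figure D2:**
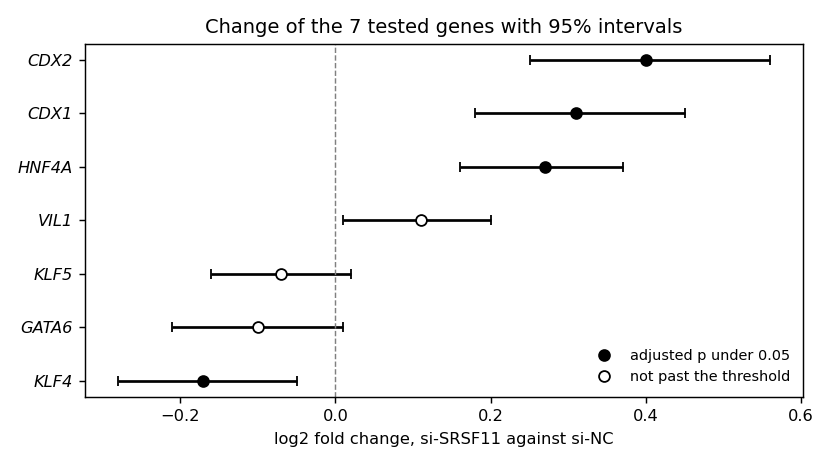
Log2 fold change of si-SRSF11 against si-NC (x axis) for the 7 tested genes, from edgeR's quasi-likelihood fit, with bars for the 95% interval and filled points for an adjusted p under 0.05. CDX2, CDX1 and HNF4A lie above 0 and KLF4 below it, and the intervals of KLF5 and GATA6 include 0.

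Taken one gene at a time, the values of CDX1, CDX2, HNF4A, KLF4, KLF5 and VIL1 each gave p = 0.10 in an exact two-sided permutation test, the smallest p that 3 libraries against 3 allow, and GATA6 gave p = 0.30 in this exact test. The calls above therefore rest on the spread that edgeR estimates across all genes. Mitochondrial genes took 7% to 7.25% of the counts over the si-NC libraries and 8.29% to 8.51% over the si-SRSF11 libraries. With the mitochondrial genes left out of the table, the log2 fold changes were 0.40 for CDX2, 0.31 for CDX1, 0.26 for HNF4A and -0.17 for KLF4, with the same calls.

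Levels were also compared between genes, as RPKM, the CPM divided by the annotated exon length in kilobases. In si-NC the order was KLF5 (152.8 ± 1.80 RPKM; SD, n = 3), GATA6 (42.8 ± 1.76), VIL1 (38.1 ± 0.774), CDX1 (25.5 ± 1.97), KLF4 (18.8 ± 0.224), CDX2 (16.5 ± 1.39) and HNF4A (11.5 ± 0.423), with ATOH1 at 0. Neighbours in this order did not overlap between libraries. KLF5 was at the 98.4th percentile of tested protein-coding genes by this measure and HNF4A at the 69.1st. In si-SRSF11 the order changed in 2 places, since VIL1 (41.0 ± 0.357 RPKM) came level with GATA6 (39.9 ± 2.95), with overlapping libraries, and CDX2 (21.9 ± 2.76) moved above KLF4 (16.7 ± 0.684), without overlap. The level of VIL1 depends on how reads over the exons shared with USP37 were counted, which the sources used here do not state.

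**Figure D3:**
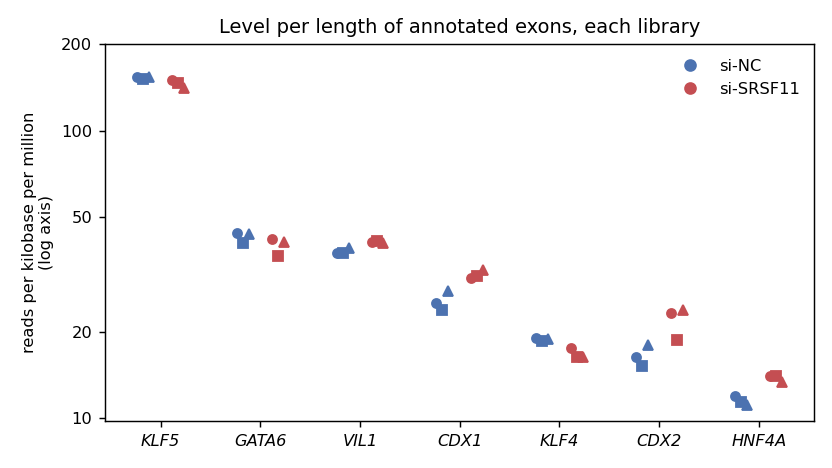
RPKM (CPM per kilobase of annotated exon, log axis) of the 7 tested genes in each library, ordered by the si-NC mean, with si-NC in blue, si-SRSF11 in red and a marker shape for each replicate number. KLF5 lies above all others, and CDX2 lies below KLF4 in si-NC and above it in si-SRSF11.

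A ratio of 2 genes within a library does not depend on scaling, and 5 such ratios were compared, each per length. CDX1 stood to CDX2 as 1.53, 1.56 and 1.53 in si-NC and as 1.32, 1.67 and 1.38 in si-SRSF11, a log2 difference of -0.09 (standard error 0.10; exact two-sided permutation test, p = 0.40, adjusted p = 0.50 over the 5 ratios). The groups overlapped, and the log2 difference moved to -0.19 without si-SRSF11 replicate 2, to -0.02 without replicate 1 and to -0.05 without replicate 3 of that group. The ratio of HNF4A to CDX2 went from 0.700 ± 0.070 to 0.640 ± 0.098 (SD, n = 3 each; log2 difference -0.13, exact p = 0.50, adjusted p = 0.50). This difference was -0.25 without si-SRSF11 replicate 2 and -0.05 without si-SRSF11 replicate 3, and it was -0.22 without si-NC replicate 3. KLF4 to KLF5 was nearly constant within si-NC, at 0.124, 0.123 and 0.122, and was 0.116, 0.111 and 0.117 in si-SRSF11, without overlap. VIL1 to HNF4A went from 3.14, 3.31 and 3.49 to 2.91, 2.95 and 3.04, also without overlap. These 2 ratios each had an exact p = 0.10, the smallest possible, and an adjusted p = 0.25. VIL1 to CDX2 went from 2.31 ± 0.15 to 1.90 ± 0.28 (SD, n = 3 each; exact p = 0.20, adjusted p = 0.33), with overlap.

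The wider network was read through 8 lists of genes, and each share called is to be read against the 24.6% called over all tested genes. That base includes noncoding genes and genes with few reads. Fitted alone, protein-coding genes gave 3638 calls among 12770, and genes with at least 50 counts in 3 libraries gave 3795 among 12184. Both are larger shares than 24.6%. Among 28 other intestinal transcription factors, 23 were tested, of which 7 rose, 3 fell and 13 did not pass (43.5% called), with a median log2 fold change of 0.17 against 0.002 over all tested genes. The rises included CREB3L3, a membrane-bound factor of liver and small intestine, from 9.31 ± 1.12 to 15.3 ± 0.215 CPM (SD, n = 3 each; log2 fold change 0.71, adjusted p = 6.8e-05), the vitamin D receptor VDR (0.34, adjusted p = 0.00041) and the fatty acid receptor PPARA (0.29, adjusted p = 0.0017). HOXB9, a posterior homeobox gene, had the smallest adjusted p of the list and fell from 620 ± 25.3 to 408 ± 11.8 CPM (log2 fold change -0.60, adjusted p = 3.9e-09). SOX9, a factor of crypt progenitors, and ESRRA, a receptor of oxidative metabolism, had high levels and did not pass (0.09 and -0.05).

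Among 15 other KLF genes, 10 were tested and 4 passed (40.0%), 2 in each direction. KLF12 rose by 0.50 and KLF3 by 0.18, both known as repressors, on the log2 scale (adjusted p = 0.00013 and 0.014). KLF10, a gene induced by transforming growth factor beta, had a log2 fold change of -0.33 (adjusted p = 1.2e-05) and KLF16 one of -0.23 (adjusted p = 0.0054). KLF2 and KLF6, the most abundant per length of the others, did not pass (-0.19 and -0.08). KLF4 was thus 1 of 3 called lower among the 12 tested genes of the KLF family, KLF5 included.

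For secretory fates, 9 of 19 transcription factors were tested, of which 2 rose and 2 fell (44.4% called). The 10 others stayed under the filter, among them NEUROG3, the factor of enteroendocrine progenitors, with no read in any library. ASCL2, which was on this list but is known for intestinal stem cells, rose from 1.99 ± 0.417 to 4.05 ± 1.19 CPM (log2 fold change 1.03, adjusted p = 0.0037). CREB3L1, which drives genes of the secretory apparatus, rose from 0.655 ± 0.333 to 2.12 ± 0.782 CPM (1.67, adjusted p = 0.0030). Both had low counts. RUNX1 (-0.29, adjusted p = 0.0017) and BHLHA15, a factor of secretory cell architecture (-0.42, adjusted p = 0.036), were lower, and XBP1 and FOXA2 did not pass (-0.09 and -0.16). In the Notch pathway, which holds ATOH1 in check through HES1, 9 of 30 tested genes passed, 4 higher and 5 lower, a share of 30.0% that lies near the 24.6% over all tested genes. HES1 itself did not pass, at 70.2 ± 3.27 CPM in si-NC and 67.9 ± 4.61 CPM in si-SRSF11 (SD, n = 3 each; log2 fold change -0.05, 95% interval -0.17 to 0.07, adjusted p = 0.59 from edgeR). HES4 fell from 157 ± 6.49 to 101 ± 7.17 CPM (-0.63, adjusted p = 2.3e-08), the receptor NOTCH3 (-0.38) and the endocytic inhibitor NUMB (-0.26) fell, and LFNG, a glycosyltransferase that modifies Notch receptors, rose (0.54). The ligand JAG1 did not pass (0.06), and the secretase subunit APH1A rose (0.16, adjusted p = 0.018).

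Villin's neighbours in the microvillus moved in both directions. Of 25 brush border and microvillus genes 11 passed (44.0%), 5 higher and 6 lower, with a median log2 fold change of -0.01. This share was not stable. Without si-NC replicate 3 only 4 genes of the list were called, beside 2852 of 15590 over all tested genes. USH1C (harmonin) and the motor MYO7B, which belong to the complex that links microvillus tips, rose, USH1C from 74.2 ± 2.17 to 104 ± 6.24 CPM (0.49, adjusted p = 7.9e-07) and MYO7B from 4.51 ± 0.452 to 8.40 ± 1.01 CPM (0.90, adjusted p = 0.00017). The scaffold SLC9A3R1 rose as well (0.20), whereas CDHR5, the protocadherin of the same tip link, fell from 63.2 ± 0.526 to 53.0 ± 0.958 CPM (-0.25, adjusted p = 0.0018) and EPS8L3, a relative of the actin-capping protein EPS8, was lower (-0.15, adjusted p = 0.037). EZR (ezrin), which ties the membrane to actin, did not pass (-0.07). Of the 7 relatives of villin 2 passed, a share of 28.6% that is also near that over all tested genes. GSN (gelsolin) was called lower (-0.16, adjusted p = 0.024) and AVIL (advillin) higher (0.56, adjusted p = 0.028), while CAPG and FLII did not pass (0.08 and 0.10).

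Among 41 products of enterocytes and colonocytes, 18 passed the filter, which left out 23 genes, sucrase-isomaltase (SI) and FABP2 with no read among them. Of the 18, 7 rose and 1 fell (44.4% called), with a median log2 fold change of 0.20. ALPI, the intestinal alkaline phosphatase of the brush border, rose from 41.4 ± 0.876 to 57.4 ± 1.78 CPM (0.47, adjusted p = 4.6e-06), with CA12 (0.67) and the sulfate transporter SLC26A2 (0.38) also higher, and carbonic anhydrase CA2 fell from 46.1 ± 4.75 to 32.1 ± 1.74 CPM (-0.52, adjusted p = 3.0e-05). LGALS4 and CDH17, a known target of CDX2, were the most abundant per length and did not pass, with log2 fold changes of -0.03 (95% interval -0.14 to 0.07) and 0.04 (95% interval -0.05 to 0.14). All adjusted p-values of list genes come from edgeR, over all tested genes. Genes of gastric epithelium were read beside them. Of 8 such genes 3 were tested, and TFF1 (0.62) and MUC5AC (0.69), which some colorectal cancers also express, were called higher and TFF2 (-0.07) was not, with GKN1, GKN2 and PGA3 at 0 and a summed level of 50 to 53.1 CPM in si-NC and 70.2 to 86.8 CPM in si-SRSF11. Their part in the results above was not tested.

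**Figure D4:**
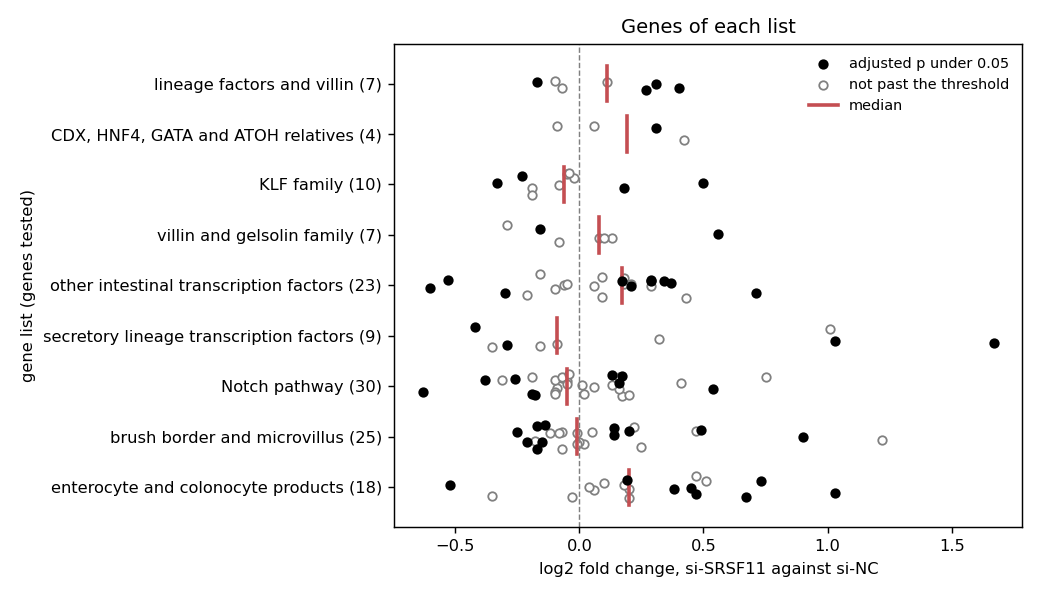
Log2 fold change of si-SRSF11 against si-NC (x axis) for the tested genes of each list (y axis, number tested in parentheses), with filled points for an adjusted p under 0.05, open points for the others and a red bar at the median of the list. The list medians run from -0.09 for the secretory factors to 0.20 for the enterocyte products, and each list with more than 1 called gene holds calls on both sides of 0.

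Markers of other cell types were few. Leukocyte markers summed to 3.62 to 4.34 CPM in si-NC and 4.67 to 5.29 CPM in si-SRSF11, with PTPRC at 0 and 2 of 7 genes tested. Hepatocyte markers summed to at most 1.41 CPM in any library and endothelial markers to at most 2.57 CPM. Fibroblast markers summed to 19.7 to 23.2 CPM in si-NC and 24.7 to 29 CPM in si-SRSF11, of which PDGFRB was called higher (0.70) and COL1A1 was not (-0.12), with DCN and LUM at 0. The part of these markers in the results was not tested.

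The gene whose pattern over the 6 libraries lay nearest to each tested member, by the root mean square difference of centred log2 CPM among 12770 protein-coding genes, was ZCCHC7 for CDX1 (0.024), HGH1 for CDX2 (0.061), SEC23A for HNF4A (0.0099), the brush border gene EPS8 for KLF4 (0.010), TNRC18 for KLF5 (0.012), INPP5E for GATA6 (0.017) and AP1M1 for VIL1 (0.0090). No other member was the nearest gene of a member. With 12770 genes to choose from, this does not show whether the members vary together. The distance was largest for CDX2, whose libraries varied most.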

How the data were processed

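RNA-seq libraries of LoVo cells after si-NC or si-SRSF11 were made by the authors (3 per group, poly-A selection, reads of 150 bp from both ends). Whole-number counts, neither normalized nor filtered, were deposited by the authors for 58735 genes, of which 26909 had no read. Per the labels the genome was hg38; the aligner, the counting program and use of strand are not given in the sources used here. Coordinates of the 8 genes matched GENCODE 29 (Ensembl 94).

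Library totals were 14369525 to 16685719 counts. The 15801 genes that reached 10 counts in 3 or more libraries were scaled by TMM and tested by edgeR 4.0.16 (R 4.3.3; glmQLFit, glmQLFTest) on condition alone, with Benjamini-Hochberg adjustment over all tested genes. Standard errors came from the quasi-likelihood F, and RPKM from the deposited gene length. Counting limits cover counting error only. The fit was tested on simulated data. Alternatives were DESeq2 1.42.0, other scalings and filters, protein-coding genes, a replicate block and each library left out, and leaving out mitochondrial genes was added after seeing the data.

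The members and lists were chosen with earlier results of these data known. Named are the members, overlapping genes, the nearest pattern of each, and per list up to 4 genes with the smallest adjusted p under 0.05 and 2 more with the highest level per length; other names (CDX4, GATA, ATOH8, HES1, NEUROG3, SI, FABP2 and marker genes) were chosen after their values were seen.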

Additional observations from a re-analysis of the deposited data

How the results depend on the processing

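The direction of each tested gene's change was the same under all 15 alternatives, and CDX1, CDX2 and HNF4A passed under each of them (adjusted p at most 0.015). KLF4 was the exception on the threshold. It did not pass with DESeq2 (log2 fold change -0.17, adjusted p = 0.051) or with a library left out, except si-SRSF11 replicate 1, over values of -0.21 to -0.15, and the cause was not tested. KLF5, GATA6 and VIL1 passed under none.

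Called genes over the whole table numbered 3886, with 3060 by DESeq2, 4036 with the replicate number as a block and 2741 to 3871 with a library left out. With this replicate block 4 members were called, as without it, and it changed the call of no member. Deviations from the group means correlated at 0.02 to 0.03 between libraries with the same number. Every library correlated best with the one of its own number, but values between different numbers were -0.03 to -0.01, so all were very weak. Such values do not show whether the numbers mark pairs. The paper describes the sequenced RNA samples as pairs of control and knockdown, and the labels do not say which libraries form a pair. The main test did not use pairs, and the fit with the replicate block is the one that takes the numbers as pairs.

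Some list counts moved by more than 1.5 times. The villin and gelsolin family went from 2 to 1 by DESeq2 and to as few as 0 with a library left out, the secretory factors from 4 to 2 at a minimum of 50 counts, the Notch pathway from 9 to as few as 5 and the brush border genes from 11 to as few as 4 with a library left out, and the relatives of the CDX, HNF4, GATA and ATOH genes from 1 to 0 without si-NC replicate 2. The villin and gelsolin count was 0 without si-NC replicate 1 or 3 and 1 without si-SRSF11 replicate 2. The brush border count was 6 without si-NC replicate 1, 4 without si-NC replicate 3 and 5 without si-SRSF11 replicate 2. The Notch count was 5 without si-NC replicate 1 or 2. Fewer genes were called over the whole table in these fits as well. Without si-NC replicates 1, 2 and 3 in turn, 2741 of 15626, 3009 of 15565 and 2852 of 15590 tested genes were called. Without si-SRSF11 replicate 2 the number was 2990 of 15543. The 3 libraries per group limit single values, since no exact test could go below 0.10, and ATOH1 is limited by depth.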
